A study of Chlamydomonas reinhardtii with 15 samples.

Results

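Chlamydomonas reinhardtii is a green alga whose strains are compared here at 0 h, before sulfur was removed, and during starvation. The transcript models described are those whose 0 h level was high only in the strain 4A+. They were chosen by measured values: the 0 h level of a model in 4A+ had to be at least 2 log2 units above its level in cc3491 and in npq4. Of 8764 models with a probe well above background at 0 h on every 4A+ array, 525 met this rule, and 523 remained after ATS2 and CDO1 were left out. The array carried 14557 models in all. The same level rule, applied with the filter of each strain, found 286 of 10917 models for cc3491 and 69 of 8292 for npq4.

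RNA came from cultures in TAP medium, which contains acetate, with or without sulfur. The strains compared were the wild types cc3491 and 4A+ and the mutant npq4, in which an insertion removed LHCSR3.1 and LHCSR3.2. 4A+ is the control strain of npq4. A further wild type, cc125, with 4 arrays, is set beside them at the end. Each 2-colour array set RNA of a starved culture in the red dye beside 0 h RNA of the same strain in the green dye, at 24, 48, 72 and 96 h for cc3491 and 4A+ and at 24, 48 and 96 h for npq4. Each RNA pooled 3 biological samples, and the 0 h RNA of a strain was the same on all of its arrays. The spread of a 0 h level is therefore that of repeated hybridizations, not of cultures. Each strain lay on a slide of its own, so strain and slide cannot be told apart. The LHCSR3 probes, which check the strain labels, were not well above background on any npq4 array, and probe 1 was well above it on all 4 arrays of cc3491 and of 4A+. In 4A+, probe 2 was well above it on 3 of 4 arrays and probe 3 on 0 of 4, so probe 3 does not tell 4A+ from npq4. In red, 8728 to 12424 of 43687 probes were well above background on the 4A+ arrays, against 14355 to 26296 on those of cc3491 and npq4. Over the members, the SD of the 0 h level had a median of 0.11 in 4A+, 0.15 in cc3491 and 0.45 in npq4.

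When sulfur is removed, Chlamydomonas raises sulfate uptake, secretes enzymes and extracellular proteins poor in sulfur, lowers photosynthesis and stops dividing. Its cell wall is made of hydroxyproline-rich glycoproteins, and genes for them are known to change with growth, the life cycle and nutrient supply. A strain that differs before starvation enters such a comparison from another starting point, since each ratio is taken against the 0 h RNA of the same strain. Few of the members carry a name. A symbol, a functional annotation or a product other than a predicted or hypothetical protein was used for 14 of the 523, and the others are given by the number of their transcript model. Among the latter, 96789 is listed by the paper as GPD4, a glycerol-3-phosphate dehydrogenase.

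Probe sequences were at hand for 50 members. Those of 3 high-ranking members are printed because their probes differ in how far they can be read as separate measurements. All are 60 bases long and are written 5′ to 3′ in lower case.
195337 probe 1: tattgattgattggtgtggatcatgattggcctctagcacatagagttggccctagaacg
195337 probe 2: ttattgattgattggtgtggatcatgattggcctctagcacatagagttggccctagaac
195337 probe 3: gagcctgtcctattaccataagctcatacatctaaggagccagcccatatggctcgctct
24009 probe 1: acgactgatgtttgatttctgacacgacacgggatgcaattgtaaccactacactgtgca
24009 probe 2: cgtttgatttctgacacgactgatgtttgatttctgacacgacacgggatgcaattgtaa
145123 probe 1: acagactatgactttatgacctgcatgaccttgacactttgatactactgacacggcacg
145123 probe 2: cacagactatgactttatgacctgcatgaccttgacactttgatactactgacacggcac
145123 probe 3: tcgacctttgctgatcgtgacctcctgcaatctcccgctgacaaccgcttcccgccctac

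Probes 1 and 2 of model 195337 shared a run of 59 bases, as did probes 1 and 2 of 145123, and those of 24009 shared 45. Such probes read almost the same stretch of a transcript. In 195337 the mean 0 h level in 4A+ was 18.20 for probe 1, 18.27 for probe 2 and 9.85 for probe 3, and each was well above the 9.81, 9.80 and 5.65 of the same probes in cc3491. In 24009 the 2 overlapping probes were level in 4A+, at 14.22 and 14.10, but not in cc3491, at 10.83 and 5.01, or in npq4, at 11.17 and 5.76. Its probe 3, left out as dim in 4A+, read 4.54 there, 4.72 in cc3491 and 5.68 in npq4. Of the 50 members with sequences, 26 had 2 probes that shared at least 30 bases. The median GC content of the members' probes was 53.3%, the same as for the other models in that table, which was given only in part.

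The 0 h difference reached 8.96, with a median of 2.72, where the smaller of the 2 differences is counted for each member. Just inside the threshold lay 149716, 195443 and 181290, the first with a mean 0 h level of 11.47 in 4A+, 9.07 in cc3491 and 9.46 in npq4. Just outside lay 160030, 196842 and 174735, the first with 10.22, 7.57 and 8.22, so the threshold cut through a continuous range. On the arrays themselves, 522 of 523 members had every 4A+ level above every level of the other strains, which held for 34.3% of all models. These values chose the members and are a description. Of the members, 169 rested on 1 probe, 146 on 2 and 208 on at least 3. Among the 354 with at least 2, all probes used were at least 2 units above both strains in 188 and at least 1 unit above in 300. A further 484 probes of the members had been left out as dim in 4A+, and 28 of them reached 2 units.

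**Figure D1:**
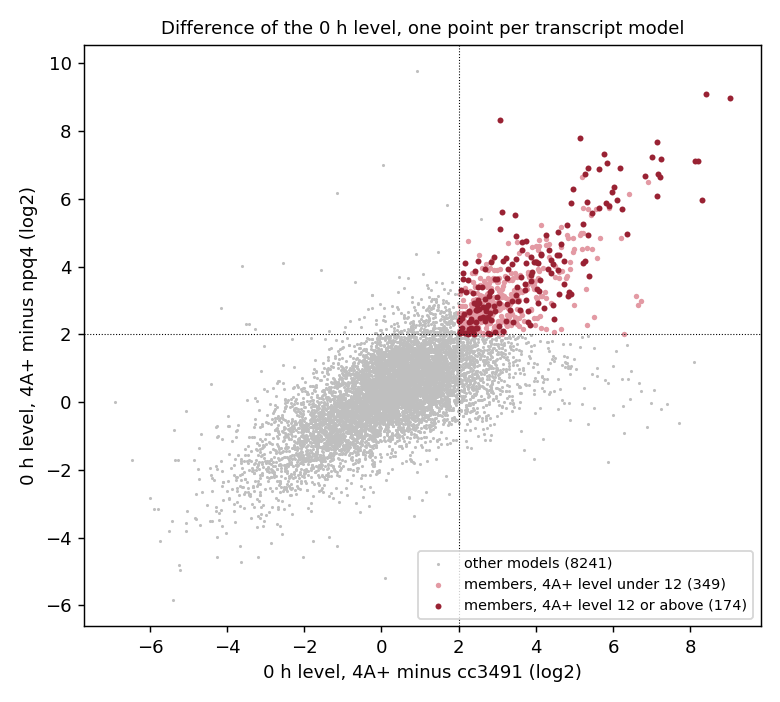
Difference of the 0 h level between 4A+ and cc3491 (horizontal, log2) and between 4A+ and npq4 (vertical, log2), with a point for each of 8764 models. Members lie to the right of and above the dotted lines at 2, and those at a level of 12 or above in 4A+ reach the largest differences, up to 8.96.

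The 10 members with the largest difference had no described product. Model 193884 led, with 0 h levels of 14.97 to 15.04 on the 4A+ arrays, 5.85, 5.73, 6.87 and 5.49 on those of cc3491 and 7.95, 4.65 and 5.54 on those of npq4, in the order of starvation time. The 4A+ values lay within 0.1 of each other, while npq4 spread widely at this low level. Its starved levels were 11.12, 11.02, 10.47 and 11.26 in 4A+, 9.40, 7.01, 9.19 and 7.24 in cc3491 and 8.09, 6.38 and 8.58 in npq4. All 4 starved levels in 4A+ stayed above those of the other strains, which did not overlap them. Model 182742 had 0 h levels of 15.95, 15.97, 15.95 and 15.98 in 4A+ and 7.61, 7.56, 7.53 and 7.51 in cc3491. In npq4 they were 8.07, 6.55 and 6.02. Its starved levels in 4A+, 10.93, 10.91, 10.54 and 11.01, stood above 5.99, 5.75, 7.03 and 8.11 in cc3491 and 7.54, 6.71 and 7.30 in npq4, at a smaller distance than at 0 h. The other 8 of this group, 192202, 192937, 187064, 193124, 195337, 193780, 205528 and 189051, had the same order at 0 h, with every 4A+ level above those of the other strains. When starved this held for 8 of the 10, and not for 187064 and 193124. Over all 10 the mean 0 h level was 12.57 to 16.43 in 4A+, 4.36 to 9.59 in cc3491 and 5.46 to 9.75 in npq4. The mean starved level in 4A+ was 7.18 to 11.71.

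**Figure D2:**
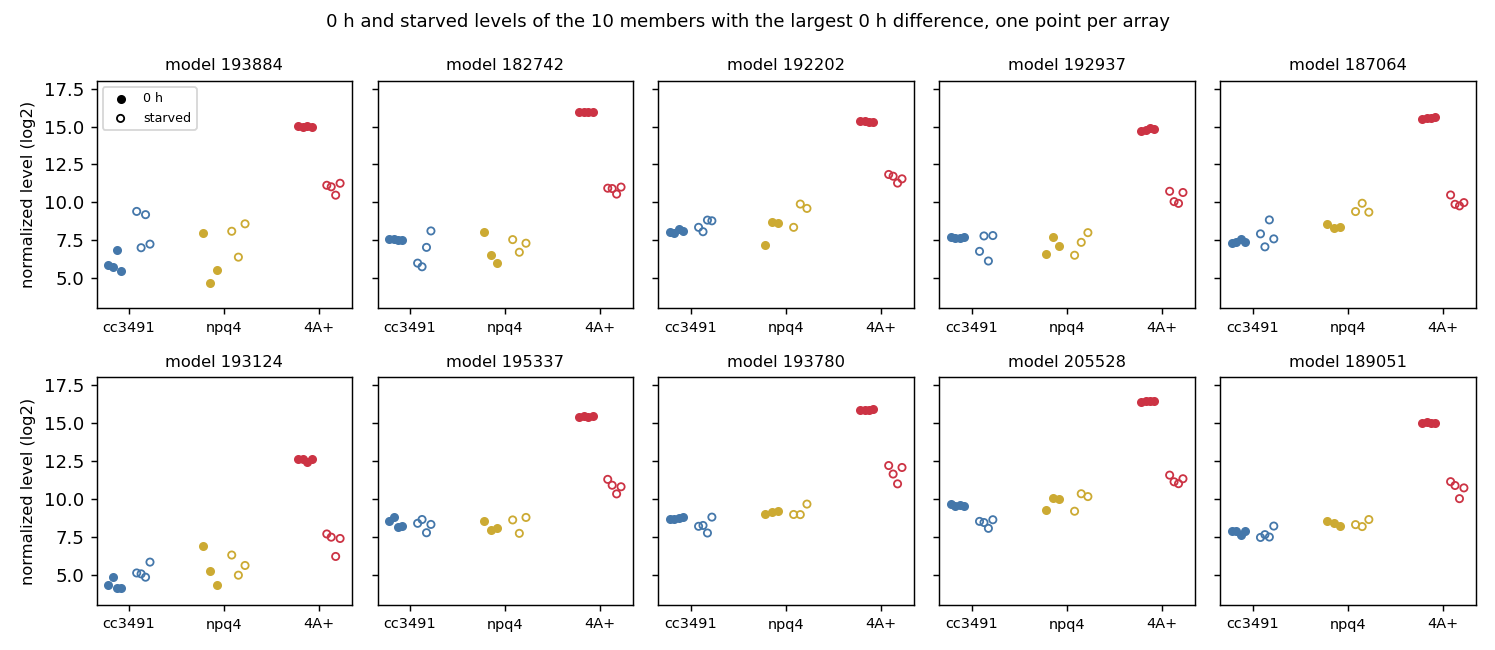
Normalized 0 h level (filled) and starved level (open) of the 10 members with the largest 0 h difference, on a log2 scale with a point per array, in order of starvation time within each strain. In 4A+ the 0 h points lie far above those of the other strains, and no level in cc3491 or npq4 is above 10.33. The starved points of 4A+ lie lower, and above the starved points of the other strains except in 187064 and 193124.

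The fall under starvation was read as the log2 ratio of the starved over the 0 h signal within each array. The ratio contains the 0 h signal that chose the members, which had to be high in 4A+ and low in cc3491 and npq4. Many falls in 4A+ and few in the others are thus partly set by the rule, and the ratios of all 3 strains are a description. A fall of at least 2-fold was seen for 173 members in 4A+ (33.1%, against 8% of all 8764 models), for 19 in cc3491 (3.63%, against 7.44%) and for 7 in npq4 (1.34%, against 7.88%). The median ratio of the members was -0.40 in 4A+, 0.03 in cc3491 and 0.02 in npq4, with -0.04, 0.01 and -0.02 for the other models. All of the 19 that fell in cc3491 also fell in 4A+, and 3 fell in all 3 strains. The count in 4A+ depends on how dim signals were handled. It was 302 without the offset of 50 that was added to each signal, and 418 with the scanner software's ratio, in which 2808 of all models fell. With that ratio 47 members fell in cc3491 and 47 in npq4, against 1052 and 1594 of all models. The members were dim in these strains at 0 h, with a median level of 6.94 and 7.12, against 9.27 and 9.22 for all models.

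The share of members that fell in 4A+ was larger at higher 0 h levels, as was that of all models. No member below a level of 10 fell by 2-fold (0 of 233), and no model at all did in that range (0 of 4902). From 10 to 12 it was 20 of 116 members (75 of 1989 models), and from 12 to 14 it was 58 of 71 (308 of 1158). At 14 or above it was 95 of 103 (318 of 715). The offset draws the ratio of dim signals towards 0, so a fall of dim members could not be read from it in any strain. With the scanner software's ratio, which has no such offset, 170 of the 233 members below 10 fell (1450 of the 4902 models). In the higher ranges it was 86 of 116, 64 of 71 and 98 of 103, against 534, 458 and 366 of all models. Among the 174 members at 12 or above, 153 fell (87.9%), against 33.4% of all 1873 models in that range. The same 174 members fell in 18 cases in cc3491 (10.3%, against 16.3% of all models in the range) and in 7 in npq4 (4.02%, against 23%). Their median ratio on the 24, 48, 72 and 96 h arrays of 4A+ was -1.94, -2.07, -2.19 and -2.18. It was -0.06, -0.19, 0.04 and 0.10 in cc3491, and 0.09, 0.29 and 0.20 at 24, 48 and 96 h in npq4. The ratio in 4A+ was thus of similar size at each time point, though all 4 arrays share the 0 h RNA that chose the members. The median starved level of these members in 4A+, which the rule did not use, was 11.86, 11.72, 11.61 and 11.58 from 24 to 96 h.

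**Figure D3:**
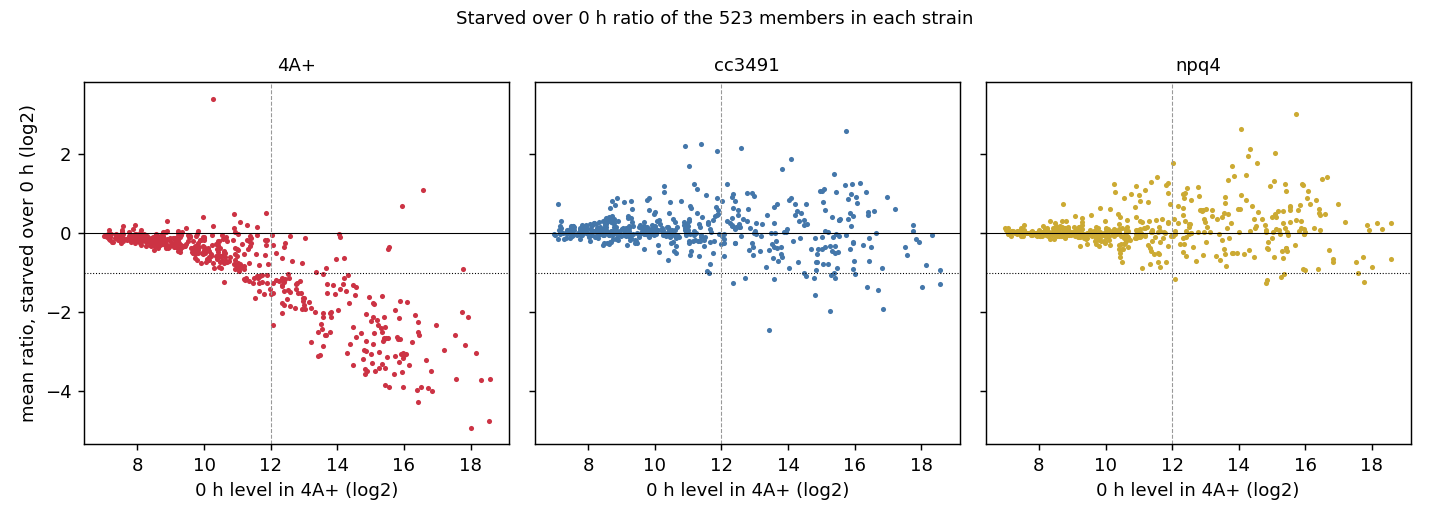
Mean log2 ratio of starved over 0 h signal (vertical) against the 0 h level in 4A+ (horizontal, log2) for the 523 members, in 4A+, cc3491 and npq4. In 4A+ the ratio sinks below the dotted line at -1 for 153 of the 174 members to the right of the dashed line at 12, whereas in cc3491 and npq4 the points scatter around 0.

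The largest fall belonged to 188207, which was named after its values were seen. Its ratios in 4A+ were -4.74, -4.44, -5.63 and -4.88 from 24 to 96 h, with a mean of -4.92 ± 0.51 (SD, n = 4). Its mean ratio was -1.36 ± 0.80 (SD, n = 4) in cc3491 and -0.85 ± 0.29 (SD, n = 3) in npq4, so that it fell less in both. Only 2 members rose by at least 2-fold in 4A+, against 8.58% of all models, and these were 126905 and 141539. Model 126905 is a doubtful member. Its 0 h level in 4A+, measured on a single RNA, read 11.58, 11.42, 10.22 and 7.90 on the 4 arrays and moved with the starved level of 16.68, 16.84, 14.79 and 8.21 at the same spots. On the 96 h array it lay beside the 7.58 to 7.85 of cc3491. Model 141539 stayed high throughout, with 0 h levels of 16.73, 16.52, 16.71 and 16.35 and starved levels of 17.59, 17.28, 17.38 and 17.10 in 4A+, against 13.61 to 14.05 at 0 h in cc3491 and 13.85 to 13.94 in npq4.

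Some members rose under starvation in the other strains. At least 2-fold higher when starved were 24 in cc3491 (4.59%, against 8.66% of all models) and 32 in npq4 (6.12%, against 8.75%). A rise of at least 2-fold in both cc3491 and npq4 was seen for 15 members, 2.87%, below the 5.21% of all models, and 9 of the 15 fell by at least 2-fold in 4A+. Model 196252, picked from them after its values were seen, had 0 h levels of 15.67, 15.73, 15.78 and 15.74 in 4A+, against 10.37 to 10.62 in cc3491 and 10.30 to 10.65 in npq4. Its starved levels were 14.19, 13.85, 13.46 and 13.69 in 4A+, 13.06 to 13.43 in cc3491 and 13.43 to 14.50 in npq4. The starved levels of 4A+ overlapped those of npq4 and ended just above those of cc3491. The riboflavin kinase 128353, an enzyme that makes flavin cofactors, also rose in both other strains. Its 0 h level was 11.88, 11.91, 11.80 and 11.88 in 4A+, 9.54 to 9.83 in cc3491 and 9.02 to 9.99 in npq4, and its starved level was 10.37 to 11.73, 11.36 to 12.36 and 11.16 to 11.86. At each shared time point its starved level was lower in 4A+ than in the other strains. The mean differences of -0.90 (SE 0.39) from cc3491 and -0.58 (SE 0.42) from npq4 were not called. CGL41 (162607), a conserved green-lineage protein with no described product here, read 12.51 to 12.64 at 0 h and 11.89 to 12.30 when starved in 4A+. In cc3491 it went from 9.45 to 9.89 at 0 h to 11.55 to 12.30, and in npq4 from 10.10 to 10.73 to 10.73 to 12.03.

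The starved level was not used by the rule and was tested between strains with limma over all 8764 models, with Holm adjustment and a limit of 2-fold. It was higher in 4A+ than in cc3491 for 35 members (6.69%, against 1.65% of all models) and lower for 0 (0.582% of all models). Against npq4 it was higher for 30 (5.74%, against 0.559%) and lower for 0 (0.0571%). Both comparisons use the same 4A+ arrays. With Benjamini-Hochberg adjustment 263 members were higher and 3 lower than in cc3491 (15.8% of all models higher), and 213 higher and 3 lower than in npq4 (13.2% higher). The median difference of the members was 1.19 against cc3491 and 1.12 against npq4, beside 0.09 and 0.23 for the other models and beside 3.05 and 3.03 for the members at 0 h. Models had entered through their 0 h signal in 4A+ alone, and 176 of the 523 members, 145 of them below a level of 10, had no probe well above background in red in 4A+, so these medians rest in part on background signal. In 179 members every starved 4A+ level lay above all starved levels of the other strains (34.2%, against 9.52% of all models). Among the 174 members at 12 or above at 0 h, of which 3 had no such probe, the median difference was 0.84 and 0.55, with 12 and 8 called. Both dyes were read from the same spots, so a property of the slide would move the 0 h and the starved level together, and its part in the result was not tested. Of the 35 and 30, all but 1 in each case had a probe well above background in red in 4A+, whereas 8 of the 35 had none in cc3491 and 15 of the 30 none in npq4. Without the 72 h arrays the 35 became 11 (47 of all models, in place of 145) and the 30 became 17. Leaving out a single array gave 17 to 33 and 13 to 26. The first count moved by over 1.5 times without any array of either strain other than the 96 h array of 4A+, and the second without any npq4 array or the 48 h array of 4A+.

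**Figure D4:**
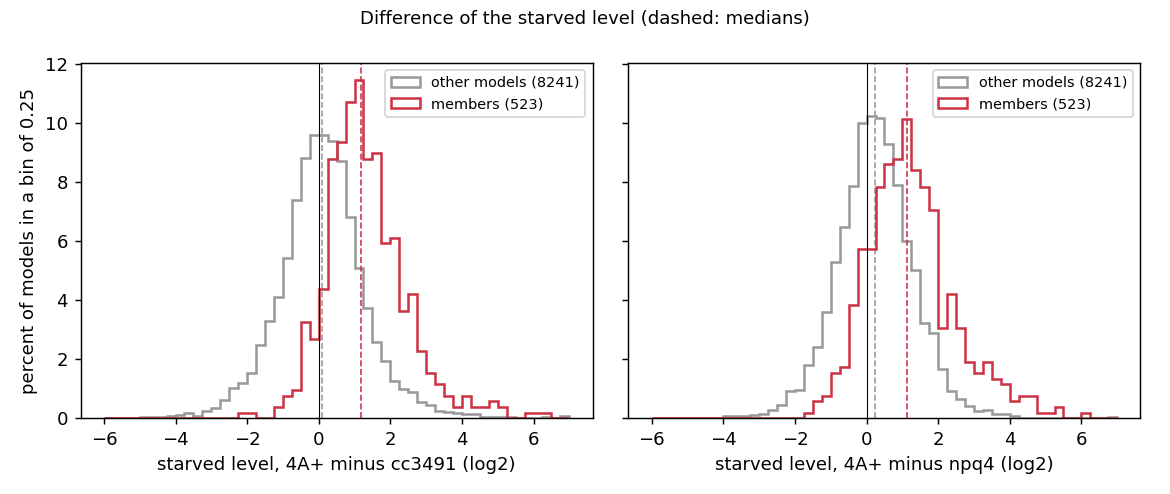
Distribution of the difference of the starved level between 4A+ and cc3491 (left) and between 4A+ and npq4 (right), in log2 units, as percent of the 523 members and of the 8241 other models. The members' medians (dashed) lie at 1.19 and 1.12, those of the other models at 0.09 and 0.23.

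Of 48 members called in either comparison, 12 fell by at least 2-fold in 4A+, beside 173 of all 523, and 23 were read by 1 probe. Model 179491 had the largest difference from cc3491. Its starved levels were 11.29, 12.59, 11.61 and 11.82 in 4A+, 4.56 to 6.46 in cc3491 and 6.71 to 7.81 in npq4, a difference of 6.26 (SE 0.45, Holm adjusted p 6.60e-06) from cc3491 and of 4.55 (SE 0.48, Holm adjusted p 0.00123) from npq4. Its 0 h levels in 4A+, 11.66, 11.69, 11.90 and 11.11, lay in the same range, so it was high both before and during starvation. With red signals corrected by normexp the differences were 2.86 and 2.55 and still passed the test. Model 168407 had starved levels of 10.41, 11.02, 10.07 and 10.60 in 4A+. When starved it had no probe above background in cc3491 or npq4, and was at least 34.7-fold higher than in cc3491 (Holm adjusted p 7.54e-07) and at least 15.5-fold higher than in npq4 (Holm adjusted p 0.000235). For such a bound, the level in the dim strain was taken on every array as the lowest that any probe well above background reached there, or as that of the model where this was higher. The bounds hold for the scanner's processed signal only. With normexp, whose offset of 50 narrows differences of dim signals, 168407 differed by 1.98 from cc3491 and 1.78 from npq4 and still passed the test. Model 150019 was at least 13.4-fold and 5.98-fold higher by the same reckoning, but differed by 0.99 from both strains with normexp and did not pass the test. Further members at the top of the list against cc3491 were 144552, 148288, 96789 (GPD4), 95072, 122896 and 182742. Of these, 96789 and 95072 had no probe well above background in starved cc3491, where the bounds were at least 17-fold and 10.8-fold. With normexp they differed by 1.16 and 1.11 and did not pass the test. The call of 144552 was lost with median centring, and those of 144552, 148288 and 182742 without the 72 h arrays. Further members at the top of the list against npq4 were 194804, 153411, 122896, 173428, 148288, 151044 and 177785. Of these, 194804, 122896, 173428 and 148288 had no probe well above background in starved npq4, where the bounds were at least 30.7-fold, 12.4-fold, 6.59-fold and 16.1-fold, so their order is not a measured one. The call of 194804 was lost with normexp. Of the 10 members with the largest 0 h difference, 7 were called higher than cc3491 when starved and 1 higher than npq4.

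Of 10 measured models in a list of cell wall and matrix genes, 3 were members, against 523 of 8764 models in all, and the median 0 h difference of the list was -0.26, beside 0.04 for all models. No member belonged to the lists for mating and gametes, nitrogen assimilation, phosphate, flagella, chaperones, chlorophyll synthesis, fermentation and hydrogen, acetate, sulfur assimilation, cell cycle, histones, proteases or transport, which held between 2 and 28 measured models each. The list for the cytosolic ribosome had 0 measured models. The lists could draw only on the 572 of 8764 models with a symbol, product or annotation of any kind, 16 of which were members. A list without members therefore says little about its pathway.

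The hydroxyproline-rich glycoprotein 195937, of the protein class that builds the algal wall, had 0 h levels of 14.46, 14.45, 14.44 and 14.54 in 4A+, 8.24 to 8.46 in cc3491 and 7.52 to 9.03 in npq4. Its starved levels were 9.54, 9.32, 8.48 and 8.94 in 4A+, 5.12, 5.76, 5.12 and 6.67 in cc3491 and 6.42, 7.48 and 7.60 in npq4. Every 4A+ level lay above those of cc3491 and npq4 at both stages, while those of cc3491 and npq4 overlapped. The mean ratio was -3.34 ± 0.26 (SD, n = 4) in 4A+, -1.02 ± 0.24 (SD, n = 4) in cc3491 and -0.59 ± 0.08 (SD, n = 3) in npq4, so it was below 0 in each strain and furthest in 4A+. The size depends on the handling of dim signals, since the scanner software gave -5.79, -3.03 and -1.60. The starved level was higher in 4A+ than in cc3491 by 3.40 (SE 0.43, Holm adjusted p 0.0111), and the difference of 1.90 (SE 0.47) from npq4 did not pass the test. VSP3 (195803), an extracellular matrix protein, read 15.27, 15.27, 15.27 and 15.25 at 0 h in 4A+, 10.60 to 10.75 in cc3491 and 10.57 to 11.12 in npq4. These levels rest on 2 probes. A further probe, left out as dim in 4A+, read 3.92 there, 4.68 in cc3491 and 5.19 in npq4. The starved levels of VSP3 were 10.74, 10.52, 10.23 and 10.58 in 4A+, 7.31, 7.47, 7.83 and 9.38 in cc3491 and 7.40, 8.87 and 10.25 in npq4. Starved levels in cc3491 and npq4 were highest at 96 h, where that of npq4 overlapped 4A+. The differences of 2.52 (SE 0.56) and 1.68 (SE 0.61) did not pass the test. The third, 111778, annotated as a UDP-L-rhamnose synthase that supplies a wall sugar in plants, was dim. Its 0 h level was 8.69 to 9.04 in 4A+, 5.45 to 5.54 in cc3491 and 4.21 to 6.61 in npq4, and no red signal of its probes in 4A+ was well above background.

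**Figure D5:**
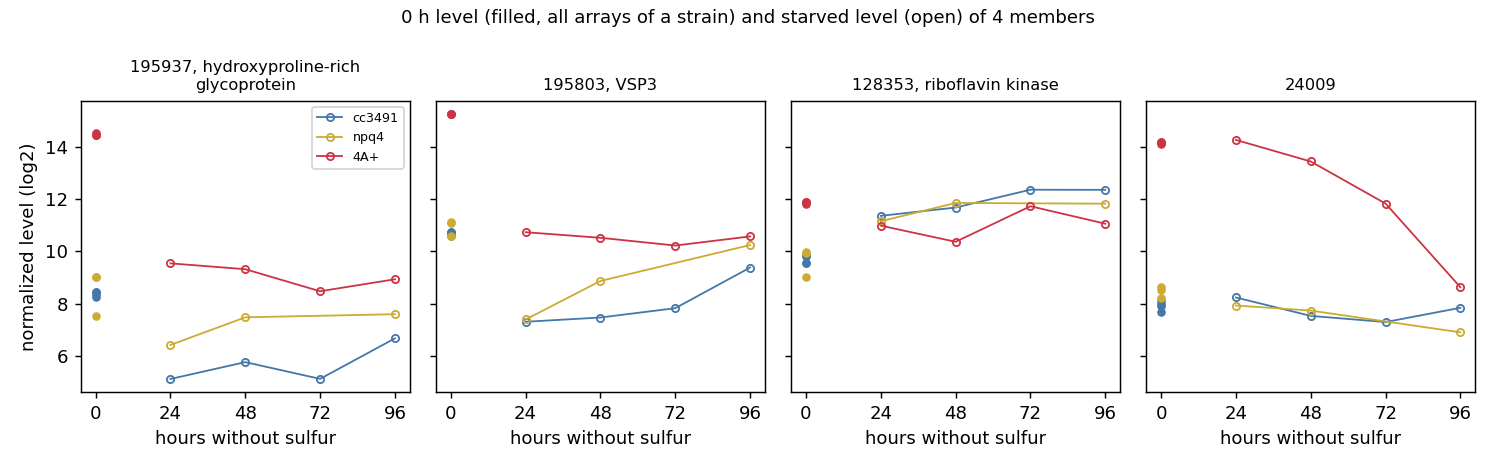
Normalized level (log2) of 4 members at 0 h (filled, all arrays of a strain) and against hours without sulfur (open, joined). The channels were normalized separately. In 4A+ the glycoprotein 195937 and VSP3 read 9.54 and 10.74 at 24 h, and 24009 goes from 14.27 at 24 h to 8.63 at 96 h. The starved level of riboflavin kinase is lower in 4A+ than in the other strains at each shared time point.

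Of the other named members, 108149 carries the domain of plant SQUAMOSA promoter binding factors, a family of transcription factors. Its 0 h level was 10.16 to 10.61 in 4A+ and 7.46 to 8.93 in npq4, and it was not well above background in cc3491 in either channel. Its starved level of 9.31, 10.50, 8.48 and 9.34 in 4A+ was at least 16-fold above cc3491 (Holm adjusted p 0.000125). With normexp the difference was 1.34 (Holm adjusted p 0.350) and did not pass the test. The difference of 1.82 (SE 0.47) from npq4 did not pass the test. Model 108035, annotated as related to a sporulation protein, read 11.16 to 11.52 at 0 h in 4A+ and 5.91 to 6.94 in the other strains. Its starved levels in 4A+ were 11.77, 9.72, 11.89 and 9.31, high at 24 and 72 h and lower at 48 and 96 h, and the Holm adjusted p of 0.0563 and 0.0607 missed the threshold. Model 111779, of the YGGT membrane protein family, fell in 4A+ with a mean ratio of -1.20 ± 0.07 (SD, n = 4). The remaining 6 were dim, with mean 0 h levels of 7.47 to 9.64 in 4A+, and none was called at the starved level. They were 111935 of unknown function, 111544 with an RNA recognition motif, 206208 annotated as an SGNH hydrolase, 111421 as a formyltetrahydrofolate deformylase of folate metabolism, 107202 as a translation initiation factor and 195443 (SEC24B) as a subunit of the coat of vesicles that leave the endoplasmic reticulum.

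The slope of the starved level over time in 4A+ was tested with limma over all models. Under Holm adjustment 0 members were called (0% of all models), as under Benjamini-Hochberg, and 42 had an unadjusted p below 0.05 (8.03%, against 11.6% of all models), 6 of them upward. Model 24009, chosen after its values were seen, came close. Its starved levels in 4A+ were 14.27, 13.45, 11.83 and 8.63 at 24, 48, 72 and 96 h, against 7.30 to 8.24 in cc3491 and 6.90 to 7.93 in npq4, with 0 h levels of 14.13 to 14.19 in 4A+. At 24 h it read near its 0 h level, though the channels were normalized separately. By 96 h it was 8.63, beside 7.84 in cc3491 and 6.90 in npq4, with a slope of -1.85 per 24 h (SE 0.25, Holm adjusted p 0.0700). These levels are means of its 2 overlapping probes, which disagreed in the other strains. Their mean starved levels were 10.32 and 5.14 in cc3491 and 9.58 and 5.46 in npq4, against 12.18 and 11.91 in 4A+.

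A RefSeq table of assembly v5.5 placed 427 members next to their neighbours. In all, 30 lay next to another member, in 14 runs of at most 3, which is 7.03% of those placed, beside 5.39% of the other placed models that had a member as a neighbour. One run held the leading model 193884 (CHLRE_17g737650v5) between 193881 and 178343. At 0 h in 4A+ the first of these neighbours reached at most 12.30 and the second 8.13 to 8.40, against 7.41 to 7.69 and 3.97 to 4.63 in cc3491 and 8.37 to 9.36 and 3.96 to 4.02 in npq4. Model 178343 was not well above background in either other strain. A run on chromosome 02 held 186850, 186849 and 155538. Of these, 186849 had 0 h levels of 11.68 to 11.83 in 4A+, 5.35 to 5.38 in cc3491 and 5.27 to 6.10 in npq4, 186850 had 13.18 to 13.25, 10.93 to 11.20 and 10.54 to 10.77, and 155538 had 8.27 to 8.58, 5.61 to 6.19 and 5.55 to 6.25. Their starved levels in 4A+ were 6.07 to 8.26, 9.82 to 10.95 and 6.49 to 7.12 for 186849, 186850 and 155538. The rule itself placed 4A+ above both strains in each of these models. Cross-reaction of probes between neighbours was not tested.

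The wild type cc125 was not used by the rule. Its arrays ran against those of the other strains, with a correlation of mean ratios across probes of -0.34 with 4A+ and -0.49 with cc3491, and the slide number in their scanner output differed from that in their labels. Which channel holds the 0 h RNA, and whether the arrays are those of cc125, is thus not settled, and both channels were set beside the 0 h level of 4A+ with no test. In 311 of 523 members both channels of cc125 were at least 2 units below 4A+, against 10.6% of all models, and in 461 both were below it. The median distance was 2.77 for the green and 2.84 for the red channel, beside 0.30 and 0.21 for all models. There, model 182742 had mean levels of 4.89 (green) and 5.27 (red), and VSP3 read 5.83 and 4.81. Other named members were not far below 4A+. The riboflavin kinase 128353 read 11.13 and 11.01, against a mean 0 h level of 11.87 in 4A+. Model 107202 read 7.91 and 7.74, both above its 7.47 in 4A+. Cross-strain levels of this kind share the 4A+ values that chose the members.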

How the data were processed

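The authors deposited Agilent scanner output from Feature Extraction 10.7.3.1, with the intensity of each spot in both channels and a log10 ratio. Levels are log2 of the deposited processed intensity, quantile normalized over the 11 arrays of 4A+, cc3491 and npq4, in each channel separately. Probes well above background in green on all 4A+ arrays were averaged per model. For ratios, median signals were corrected by normexp (offset 50, fitted on spots without outlier marks and with net signal above -100), then by loess, with outlier-marked spots left out. Mean signals had been intended for normexp, and median signals were used in their place. Starved levels were fitted in limma 3.58.1 (R 4.3.3) with a coefficient per strain, and slopes per 24 h with a slope per strain. A call needed a Holm adjusted p below 0.05 over 8764 models and, for levels, 2-fold. The p-values measure the spread between arrays of 1 strain, which are time points, and the number of arrays limits precision. The fits were tested on simulated data.

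Named were members with a symbol or product, the first 10 by 0 h difference, up to 10 called each way and those beside the threshold. Symbols came from a name table of the study. In another such list, of 263 numeric entries 79 did not match their model, so names found only there were not used. The members and gene lists were chosen with earlier results of these data known.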

Additional observations from a re-analysis of the deposited data

Results flagged for a closer look

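The median ratio of the members was below 0 on every 4A+ array, with -0.40 in 4A+. It was barely above 0 on every other array, at 0.004 to 0.04 in cc3491 and 0.01 to 0.03 in npq4. For members at 14 or above it was -0.22, -0.32, -0.06 and 0.09 in cc3491 from 24 to 96 h. Among the first 10 members, every ratio was below 0 in 4A+ and above 0 in the other strains for 193884 (mean 1.07 in cc3491 and 0.40 in npq4) and 192202 (0.41 and 0.57). This also held for 187064 against npq4 (0.66) and 193124 against cc3491 (0.16). These differences were not tested, because the ratio holds the 0 h signal that chose the members.

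In 10 of 156 sets of 4 arrays looked at, 1 array stood far from the other three, where chance flags about 1 in 20. In 4A+ these were the 0 h level of 195937 on the 96 h array (14.54) and the ratios of 193780 (-3.72) and 195937 (-3.73) on the 72 h array. In cc3491 they were the 0 h levels of 111935 (5.70) and 111421 (5.88) at 72 h, the starved level of 108149 at 24 h (5.19), and the ratios of 195337 at 96 h (0.38), 108035 at 48 h (0.18), VSP3 at 96 h (-1.08) and 111544 at 24 h (0.51).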

How the results depend on the processing

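The set of members depended on the handling of dim signals. In place of 523 there were 335 with median centring, 157 with normexp before quantile normalization, 150 with loess and Aquantile (149 of them members before), 300 with all probes, 290 with probes detected at 0 h in all 3 strains and 197 at a difference of at least 3. Leaving out single arrays gave 499 to 562. The 157 that met the rule with normexp were all among the 523 and included the first 10, and 138 of them fell in 4A+. The count of falls in 4A+ was 418 with the scanner software's ratio and 302 at offset 0, and 171 to 174 without single arrays. For the members tried singly, 72 values of the ratio moved by more than the spread between arrays and 133 did not. In cc3491 it was 47 with the scanner's ratio and 15 to 22 without single arrays. In npq4 it was 47 with that ratio, 30 at offset 0, 1 with normexp fitted on all spots, 13 with probes detected in red throughout and 4 to 10 without single arrays.

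Starved levels were higher in 4A+ than in cc3491 for 263 members with Benjamini-Hochberg adjustment (1388 of all 8764 models) and for 12 with normexp (50). With probes detected in red on every array it was 12, beside 88 of the 4492 models tested there. With only the compared arrays it was 23 (116 of all models), without 72 h 11 (47), and among the 157 it was 13. Leaving out single arrays gave 17 to 33. Against npq4 the counts were 213 (1157 of all models), 10, 7 and 20 for the same settings. They were 13 with median centring, 17 without 72 h, 9 among the 157 and 13 to 26 without single arrays. For npq4 the counts other than 213 are given without that of all models. With the replicate block, the time point as a fixed block, 20 (86 of all models) and 17 were called in place of 35 and 30. Deviations of arrays of the same time point correlated at -0.13 to 0.12 between strains, so arrays share only a time. The slope gave 0 to 2 members without single 4A+ arrays. On the arrays labelled cc125 the count was 300 to 314 without single arrays. In none of these settings was a member at least 2-fold lower in 4A+ at a Holm adjusted p below 0.05. The restriction to the 157 and the cc125 alternatives were chosen after seeing the data, and the causes were not tested.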
